A study of Caenorhabditis elegans with 2 samples.

Results

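The genes described here are 40 genes of Caenorhabditis elegans that make, load, release, clear or recycle neurotransmitters and neuropeptides, taken by name from a list of such genes. They were looked up among 19985 protein-coding genes for peaks of a tagged zinc finger protein, ZTF-1. All 40 were found in the gene models of assembly WBcel235. Chromatin immunoprecipitation followed by sequencing (ChIP-seq) had been done on whole L2 larvae with an antibody against GFP. Both samples were biological replicates of strain OP207, aged 28.5 hours, grown from L1 larvae that were starved after bleaching. The strain carries the fosmid transgene wgIs207, in which ztf-1 is fused to TY1, eGFP and FLAG tags beside unc-119, so what was mapped is the product of a transgene. No group without the tag was analysed here, and no comparison between conditions was possible. Each sample held the chromatin of all tissues, so no peak can be placed in neurons or in any other cell type.

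A neuron synthesises its transmitter in the cytoplasm or takes it up again from outside. A vesicular transporter then loads it into synaptic vesicles, while neuropeptides are cut from precursors inside dense-core vesicles. Vesicles are carried along the axon by a kinesin motor, dock and are primed at release sites, and fuse through SNARE proteins when calcium enters. Their membrane is then taken up by endocytosis. In C. elegans, loss of many of these genes gives the uncoordinated movement, egg-laying or defecation defects behind the names unc, egl and aex.

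For each gene, a window was taken from 2000 bp upstream of its start to its end, and the summits of the 8 deposited peak lists that fell inside it were recorded. In the replicate-compared list, where peaks had to recur between the replicates at an irreproducible discovery rate (IDR) of 0.01 or less, 5 of the 40 genes had a thresholded summit. They were mod-5, cat-2, unc-64, egl-3 and unc-25, with 1 summit each. By the same rule 1.20% of all protein-coding genes had one, against 12.5% of the 40. This difference was not tested, because the 40 genes were chosen with earlier results of these data known. Their windows were also longer, with a median of 7.26 kb against 4.03 kb. Each of the 5 summits lay nearer to the start of its own gene than to any other protein-coding start. Beside them, 34 genes had summits only in the ranked list, which also holds entries that did not pass, and cat-4 had none at all. A ranked summit by itself sets a gene little apart, since 90.4% of all protein-coding genes had one in their window.

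Whether the peaks depend on the bases at their summits was not tested. The sequences at 4 of the 5 summits are shown, and 1 more is added from ida-1, which had no thresholded peak. Each shows 50 bases on either side of the summit base, on the strand of its gene in assembly WBcel235, and comes from the RefSeq copy of that assembly. None of the windows shown touched an annotated untranslated region. Capitals mark the words GCGC and CTCTCTCT or its reverse complement AGAGAGAG, which were chosen after the sequences had been seen. The cat-2 window is chrII:259347-259447, the unc-64 window chrIII:13275972-13276072, the egl-3 window chrV:10173577-10173677 on the minus strand, the unc-25 window chrIII:12942494-12942594 and the ida-1 window chrIII:5755329-5755429.
cat-2: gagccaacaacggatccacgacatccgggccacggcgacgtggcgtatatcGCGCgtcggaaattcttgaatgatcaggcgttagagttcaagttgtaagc
unc-64: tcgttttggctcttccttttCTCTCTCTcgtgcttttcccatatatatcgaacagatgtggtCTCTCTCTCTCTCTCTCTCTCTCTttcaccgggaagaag
egl-3: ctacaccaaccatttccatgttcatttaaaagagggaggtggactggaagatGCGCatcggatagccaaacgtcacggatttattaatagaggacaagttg
unc-25: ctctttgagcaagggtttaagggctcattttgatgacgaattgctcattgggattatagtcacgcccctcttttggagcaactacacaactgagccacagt
ida-1: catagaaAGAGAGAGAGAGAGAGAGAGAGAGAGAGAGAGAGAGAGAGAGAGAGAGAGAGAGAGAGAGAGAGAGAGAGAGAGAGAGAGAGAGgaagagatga

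The cat-2 and egl-3 windows each held GCGC close to the centre, and the unc-64 window held an unbroken repeat of C and T of 25 bases. Around the ida-1 summit the repeat of A and G reached 84 bases, most of the window. The unc-25 window held neither word. GCGC, which reads the same on both strands, was found in 3 of the 5 windows of these genes, the third being that of mod-5, and at 31.8% of all 214 merged peaks of the replicate-compared list. It was found at 11.6% of the 43349 merged ranked peaks. The strongest summits of the genes without a thresholded peak had it in 4 of 33 distinct windows, those of ace-2, cho-1, egl-19 and snb-1. CTCTCTCT, counted on both strands, was found at 3.27% of the 214 peaks and at 0.860% of the ranked peaks. Of the 5 windows only that of unc-64 had it, and of the 33 only that of ida-1, so the ida-1 sequence is an exception among them. Base composition differed too, with a mean GC content of 47.1% ± 4.24 at the 5 summits (SD, n = 5), 46.3% ± 8.54 at the 214 and 39.4% ± 7.15 at the 181 other ranked summits of the 40 genes. Its part in the share of windows with GCGC was not tested.

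The signal printed for a peak is the deposited signal value, which has no stated unit and ranks peaks within 1 list only. Where signals of replicate 1 and replicate 2 are set side by side, they come from different lists. No scaling between those lists was done here. The precision of a single signal cannot be given, because no file used here holds read counts. Nearly every interval of a list had the same length, 540 bp in the series-level lists, so a summit stands for the middle of a fixed interval. In the replicate-compared list the deposited q-values of the 5 thresholded summits were weak. They ran between 0.0526 for mod-5 and 0.546 for unc-25, and none reached 0.05, while 26 of the 238 entries of the thresholded list did. In the replicates' own ranked lists, mod-5 had 0.0112 in replicate 2 and unc-64 had 0.0159 in replicate 1. The other values of the 5 summits there were 0.181 or more. In the lists thresholded within a single replicate, none of the 40 genes had a summit, where 0.120% of all protein-coding genes had one in replicate 1 and 0.105% in replicate 2. Those lists held only 18 and 17 merged peaks.

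Genes for the monoamines held both the highest and some of the lowest signals. The highest was at mod-5, the serotonin reuptake transporter gene, with a signal of 122.1, place 28 of the 214 peaks and an IDR of 0.00212. Its summit, at position 3045402 of chromosome I, lay in an intron 2392 bp into the gene, which spans 3034716 to 3047794 on the minus strand. Replicate 1 had a signal of 48.9 there and replicate 2 had 61.9. A further mod-5 summit lay 4235 bp from the start in coding sequence, with a signal of 71.2 and an IDR of 0.0247, and 5 others had signals of 30.5 to 62.3. The gene therefore held 7 ranked summits in a window of 15.1 kb.

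The cat-2 gene, for the tyrosine hydroxylase of dopamine synthesis, had a thresholded summit with a signal of 110.4, at place 61 and with an IDR of 0.00146, the lowest of the 40 genes. Replicate 1 had a signal of 59.1 and replicate 2 had 48.98. The summit lay at position 259397 of chromosome II, in coding sequence 1578 bp into the gene (257819 to 261074, plus strand). The same position is inside an intron of scc-2, a cohesin loader gene on the opposite strand, whose start is 4266 bp away, so 1 summit is counted in the windows of both genes. A weaker summit of 49.4 lay 679 bp from the cat-2 start.

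None of the other 7 monoamine genes had a thresholded summit. Among them cat-1, the vesicular monoamine transporter gene, had the strongest ranked summit, with a signal of 65.9 in coding sequence 4510 bp from the start. It was followed by tbh-1, for the enzyme that makes octopamine, with 59.0 at a position nearer to the start of H13N06.7. The dopamine transporter gene dat-1 had 41.4, in a summit that is also in the window of T02C1.1 and nearer to the start of that gene. The tryptophan hydroxylase gene tph-1 had 36.05, at a summit 19 bp past its start in the 5′ untranslated region (UTR). The tyramine synthesis gene tdc-1 had 24.1 and bas-1, for the decarboxylase of dopamine and serotonin synthesis, had 21.9. The gene for the GTP cyclohydrolase that supplies the cofactor of the hydroxylases, cat-4, had no ranked summit in its window of 3.585 kb. Within dopamine synthesis, the cat-2 signal thus stood beside a low one at bas-1 and none at cat-4.

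**Figure D1:**
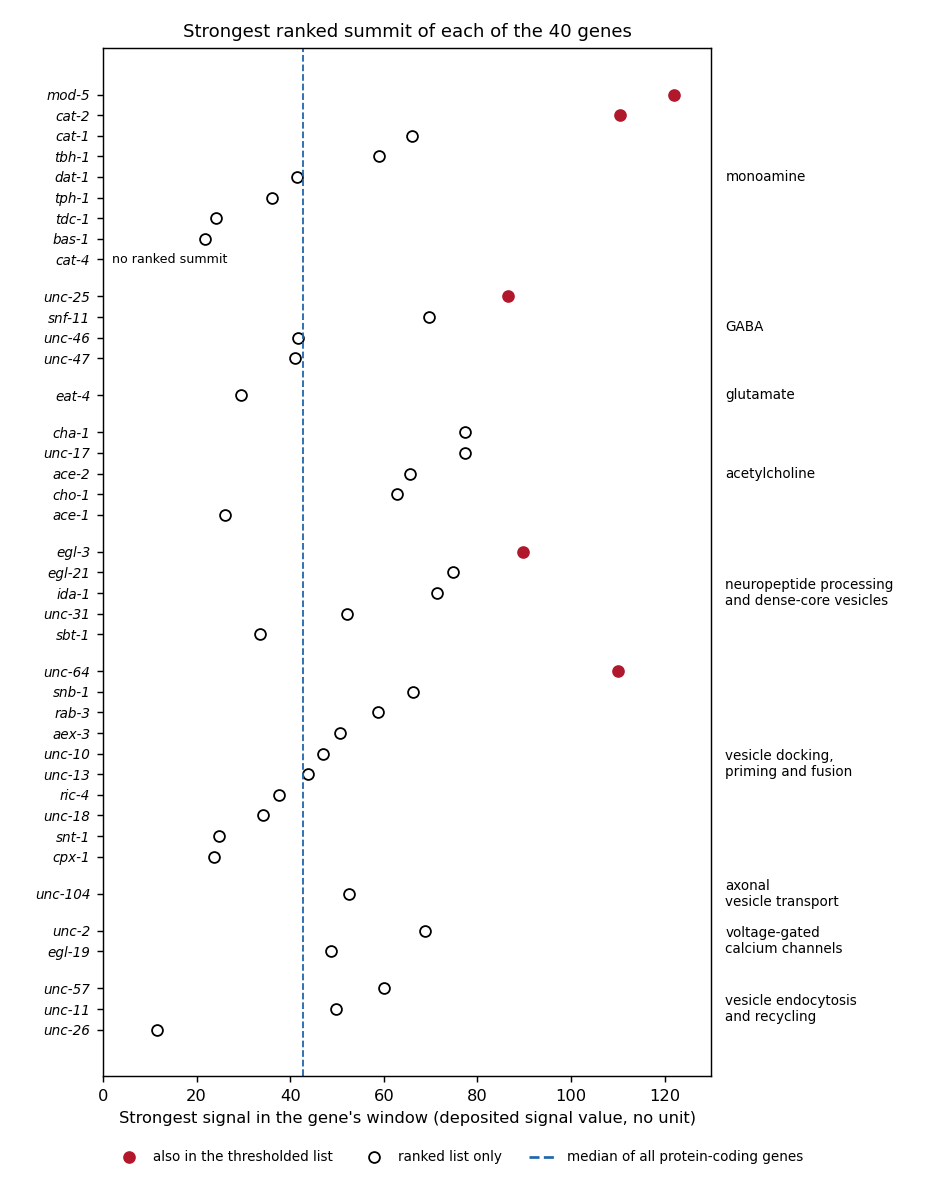
Strongest ranked summit in the window of each of the 40 genes, grouped by role, as the deposited signal value with no unit (x axis); filled red points are also in the replicate-compared thresholded list and open points are not. The dashed line is the median over all protein-coding genes with a ranked summit, 42.8, and the 5 filled points, at 86.5 to 122.1, lie right of every open point, the highest of which is 77.3.

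Of the 4 GABA genes, unc-25, for the glutamic acid decarboxylase that makes GABA, had a thresholded summit at position 12942544 of chromosome III, 107 bp upstream of its start (gene 12942651 to 12949883, plus strand). Its signal was 86.5, at place 182, with an IDR of 0.00488. Among the 5 thresholded summits the replicates were closest at this one, with 48.8 in replicate 1 and 46.6 in replicate 2. The next summit of its window had 46.9, in coding sequence. The plasma membrane GABA transporter gene snf-11 had a strongest signal of 69.7 in an intron 693 bp from the start, with an IDR of 0.0531. The vesicular GABA transporter gene unc-47 had 41.1 at 125 bp upstream, and unc-46, whose product sorts that transporter to vesicles, had 41.8. The one glutamate gene, the vesicular transporter gene eat-4, had a strongest signal of 29.6, in a summit 1548 bp upstream.

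No acetylcholine gene had a thresholded summit, though the signals of 4 of the 5 were above the median of all genes. The choline acetyltransferase gene cha-1 and the vesicular acetylcholine transporter gene unc-17 share a start region and overlap, and their strongest summit was the same one. It had a signal of 77.3, the highest of any gene without a thresholded peak, an IDR of 0.0541, and paired signals of 37.0 and 32.7. It lay in coding sequence of unc-17 and in an intron of cha-1, 5644 bp from the unc-17 start and 5642 bp from the cha-1 start, which was the nearest. All 5 ranked summits in the unc-17 window were also in that of cha-1, so these genes do not give independent values. The acetylcholinesterase gene ace-2 had 65.6, the choline transporter gene cho-1 had 62.9, and ace-1, another acetylcholinesterase gene, had 26.1.

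Among the 5 genes of neuropeptide processing, egl-3, which encodes a proprotein convertase, had a thresholded summit with a signal of 89.8, at place 163 and with an IDR of 0.00887. It lay at position 10173627 of chromosome V, in the coding sequence of the first exon, 126 bp from the start (gene 10169177 to 10173753, minus strand). Replicate 1 had a signal of 51.6 and replicate 2 had 38.1. A further summit of 65.8 lay in its 3′ UTR. The carboxypeptidase gene egl-21, whose product acts after EGL-3 on the same precursors, had a summit at nearly the same place relative to its start, in coding sequence 86 bp in. It had a signal of 74.8 and an IDR of 0.0469, so it did not pass the threshold. The dense-core vesicle gene ida-1 had 71.3 at 160 bp upstream, on the repeat shown above, with an IDR of 0.0524. The gene for the dense-core vesicle release factor CAPS, unc-31, had 52.1, and the convertase chaperone gene sbt-1 had 33.5 in a summit nearer to num-1.

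Of the 10 genes for docking, priming and fusion of vesicles, unc-64, the syntaxin gene, had a thresholded summit. Its signal was 110.1, at place 63, with an IDR of 0.00584. The summit lay at position 13276022 of chromosome III, 1236 bp upstream of the start (gene 13277258 to 13283887, plus strand) and inside no protein-coding gene. Among the 5 thresholded summits the replicates were furthest apart here, with 72.7 in replicate 1 and 34.8 in replicate 2, a ratio of 2.09. In replicate 1 alone the summit stood at place 31 of 21258 merged peaks, and in replicate 2 at place 1589 of 18470. The other 4 summits of the unc-64 window had signals of 17.6 to 42.0.

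The other SNARE genes had no thresholded summit. The synaptobrevin gene snb-1 had a signal of 66.2 in coding sequence 99 bp from the start, where the first of the paired signals was 37.9 and the second 5.70, although the list of replicate 2 held an interval over the same summit with 29.6. The gene for the remaining SNARE partner, ric-4, had 37.6. The vesicle GTPase gene rab-3 had 58.8 and aex-3, for its exchange factor, had 50.7. The active zone scaffold gene unc-10 had 47.1, the priming factor gene unc-13 had 43.7 over 12 ranked summits, and the syntaxin-binding gene unc-18 had 34.1. The calcium sensor gene snt-1 had 24.7 and the complexin gene cpx-1 had 23.6. Signals of this group thus lay on both sides of the median of all genes.

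The genes for transport, calcium entry and recycling had no thresholded summit either. The kinesin gene unc-104 had a strongest signal of 52.6. The synaptic calcium channel gene unc-2 had 68.8 in an intron 13663 bp from its start, with an IDR of 0.0592, and the L-type channel gene egl-19 had 48.8. With 25 ranked summits in 54.6 kb, unc-2 held more than any other of the 40 genes. Among the endocytosis genes, unc-57 (endophilin) had 59.98. The gene unc-11 (a clathrin adaptor) had 49.9, in a summit that is also in the window of C32E8.9 and nearer to its start. The lowest of the 39 was unc-26 (synaptojanin), with 11.7. Its window held a signal of 36.6 in the pooled ranked list and of 28.5 in the list of replicate 2, so this low value rests on the list used.

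**Figure D2:**
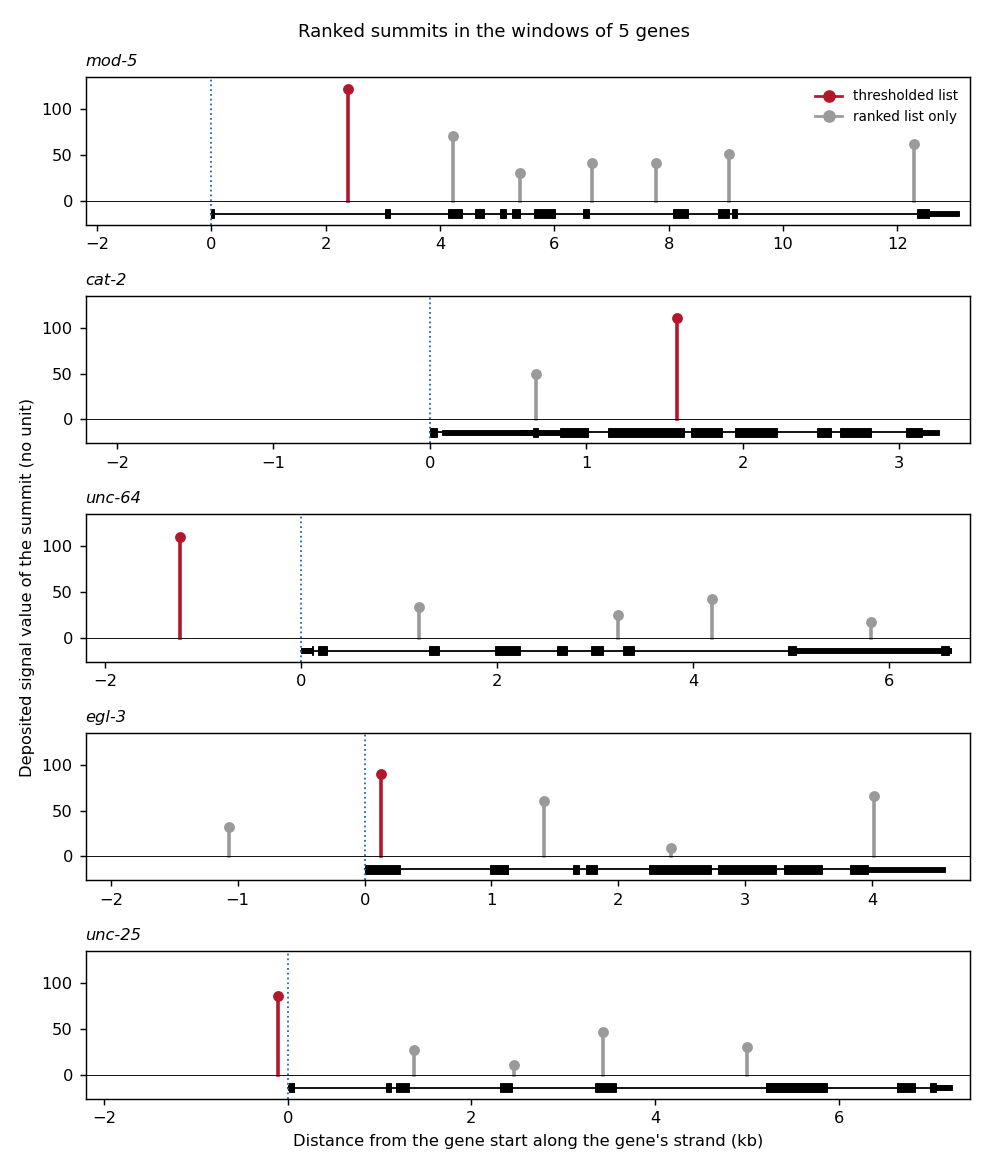
Ranked summits in the windows of the 5 genes with a thresholded summit, by distance from the gene start along the gene's strand in kb (x axis) and deposited signal value with no unit (y axis); red is the thresholded summit, grey the others, and boxes under the zero line are exons, taller where coding. The red summit is the highest in each window and lies upstream in unc-64 and unc-25, 126 bp in for egl-3, and inside the gene for cat-2 and mod-5.

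Where the summits lay relative to the gene differed among the 5. They were upstream in unc-64 and unc-25, in coding sequence in egl-3 and cat-2, and in an intron in mod-5. The thresholded summit was 1.36 times as high as the next in the egl-3 window and 2.62 times as high in the unc-64 window, with the other 3 genes between. Over all 191 ranked summits counted in the windows of the 40 genes, 15.7% lay upstream, where the upstream part made up 20.3% of the windows' length. For all protein-coding genes 35.7% of summits lay upstream, in 38.3% of the length. A ranked summit within 500 bp of the start was found in 18 of the 40 genes (45%) and in 44.2% of all protein-coding genes. For 29 of the 39 genes with a ranked summit, the strongest one was nearest to that gene's own start. For the other 10 another start was nearer. The same share over all protein-coding genes was not counted, so this is no trait of the 39 genes.

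Length bears on these counts, because a longer window can hold more summits. The median window was 7.26 kb for the 40 genes and 4.03 kb for all protein-coding genes, and 35 of the 40 were longer than 4.03 kb. Windows of 5 to 10 kb had a thresholded summit in 4 of 20 of these genes, against 1.83% of all protein-coding genes in that class. Windows of 10 kb or more had one in 1 of 12, against 3.51%, and windows under 5 kb in 0 of 8, against 0.708%. The share was thus above that of all genes in the classes over 5 kb, in the longest class through mod-5 alone. Ranked summits were about as dense as elsewhere, with 0.485 per kb of window for the 40 genes and 0.453 per kb for all protein-coding genes.

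The strongest signals as a whole stood closer to other genes than the count of thresholded summits did. The median of the strongest signal was 52.1 over the 39 genes and 42.8 over all protein-coding genes. In windows of 5 to 10 kb it was 61.5 for these genes and 47.4 for all, but in windows of 10 kb or more it was 51.4 and 56.4, and under 5 kb it was 36.05 and 39.3. Within their own class of window length, 21 of the 40 genes were above the class's median, 9 (22.5%) were among its highest 10% and 11 among its lowest 25%. The list therefore held genes at both ends of the range.

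**Figure D3:**
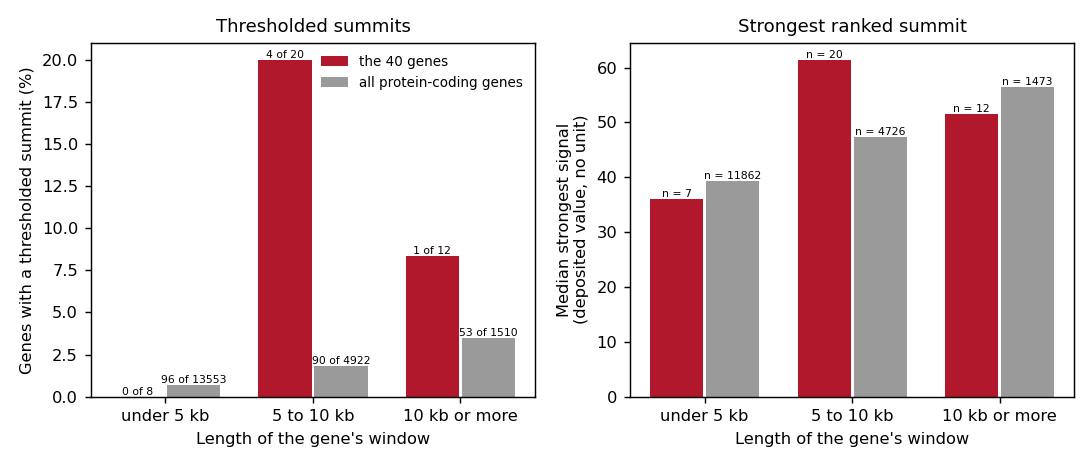
Share of genes with a thresholded summit in % (left) and median strongest ranked signal with no unit (right), for the 40 genes (red) and all protein-coding genes (grey), by length of the gene's window; numbers over the bars are genes with such a summit of all genes in the class (left) and genes with a ranked summit (right). The 40 genes were above all genes on the left for 4 of 20 and 1 of 12 genes, while on the right they were above only in the class of 5 to 10 kb.

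Each of the 5 thresholded summits lay inside an interval of either replicate's own ranked list, which their selection by the comparison between replicates favours. Within single replicates their IDRs were weak. They ran from 0.0927 (cat-2) to 0.499 (unc-25) in replicate 1 and from 0.101 (mod-5) to 0.516 (unc-64) in replicate 2. The ratio of the signal in replicate 1 to that in replicate 2 was 0.790 for mod-5, 1.05 for unc-25, 1.21 for cat-2, 1.36 for egl-3 and 2.09 for unc-64. Over the 214 peaks the corresponding ratio of the paired signals had a median of 1.16, with quartiles of 0.958 and 1.41, so unc-64 lay above that range and mod-5 below it. With the replicates taken singly, 32 of the 40 genes (80%) had a ranked summit in replicate 1, against 66.4% of all protein-coding genes. In replicate 2 it was 31 of the 40 (77.5%), against 60.2% of all. Of the 40 genes, 29 had one in both, and the share of all protein-coding genes with both was not counted. The median of the strongest signals was 35.6 in replicate 1 and 28.5 in replicate 2 for these genes, against 29.3 in replicate 1 and 24.98 in replicate 2 for all protein-coding genes. These shares and medians were not split by window length, and the 40 genes had longer windows. Per kb of window, the density of ranked summits relative to all protein-coding genes was 1.21 in replicate 1 but 0.953 in replicate 2. At the strongest summits of the 39 genes, the first paired signal was the higher in 28, the summit shared by cha-1 and unc-17 counting for both. The median was 31.4 for the first and 20.0 for the second. The first also tended to be the higher over the 214 peaks, where the median ratio was 1.16. Those peaks had all passed the IDR limit, as most of the 39 strongest summits had not, so the sets are unlike. For the strongest summits of all protein-coding genes this was not counted.

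**Figure D4:**
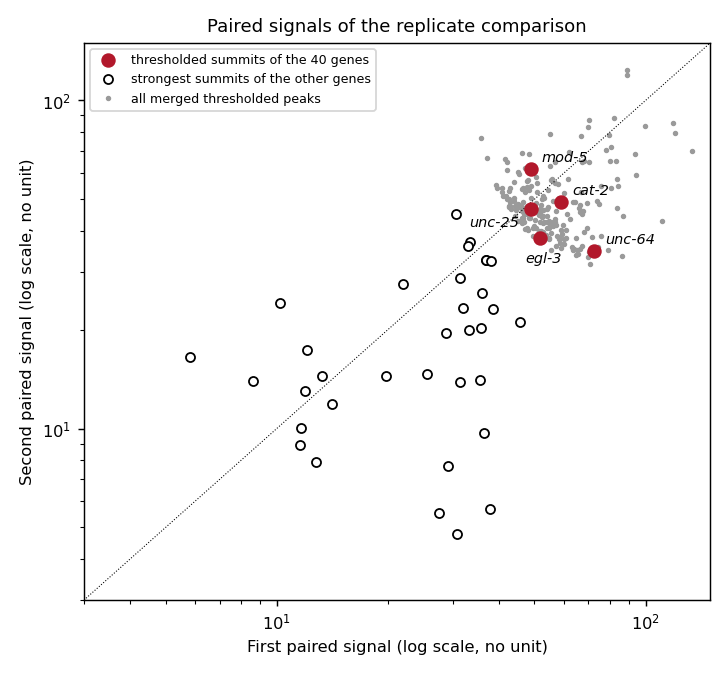
First (x axis) against second (y axis) paired signal of the replicate comparison, both on log scales and with no unit, for the thresholded summits of the 40 genes (red, named), the strongest summits of the 34 genes without one (open) and all 214 merged thresholded peaks (grey); the dotted line marks equal signals. The red points lie within the cloud of thresholded peaks, with unc-64 farthest below the dotted line at 72.7 and 34.8, and the open point with the highest signal, the summit shared by cha-1 and unc-17, lies at 37.0 and 32.7.

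A further list made from the alignments of both replicates, called the pooled list here, held mod-5 and cat-2 of the 5, where 0.851% of all protein-coding genes had a summit. There the IDR was 0.00483 for mod-5 and 0.00613 for cat-2, against 0.0149 for egl-3, 0.0164 for unc-64 and 0.0336 for unc-25, all of which missed the limit of 0.01. In the replicate-compared list the summit nearest the threshold was that of egl-3 inside it, at 0.00887, and the further mod-5 summit outside it, at 0.0247. Among genes without a thresholded summit, egl-21 came nearest with 0.0469, followed by ida-1, snf-11, cha-1 with unc-17, and unc-2 at 0.0524 to 0.0592.

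Other genes of synaptic signalling were counted by the same rule. Of 73 further genes for synaptic and neuropeptide machinery, 3 had a thresholded summit (4.11%), all in coding sequence. They were egl-8, a phospholipase C gene (signal 117.6, 15783 bp from its start), ric-7, which acts in the placing of mitochondria in axons (94.1, 16081 bp), and dyn-1, the dynamin gene of vesicle endocytosis (93.3, 3249 bp). For egl-8 and ric-7 another gene's start was nearer. None of 66 transmitter receptor genes, 143 neuropeptide precursor genes or 37 sarcomere genes of body wall muscle had one. The share over all protein-coding genes was 1.20%, with 0.708% for windows under 5 kb and 1.83% for 5 to 10 kb. At such shares a list of this size can hold none, so the lists without any are set little apart from other genes. The 4.11% of the machinery genes lay above these shares, and that difference was not tested. Median strongest signals were 54.04 for the machinery genes, 48.0 for the receptors, 39.1 for the precursors and 56.3 for the sarcomere genes, so the 52.1 of the 40 genes lies between those of other lists. Median windows were 7.08, 7.32, 2.87 and 6.80 kb in the same order.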

How the data were processed

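The authors deposited 8 peak lists on assembly ce11, per the text notes deposited beside them: a ranked and a thresholded list for each of 4 comparisons by IDR. For the aligner and the peak caller, names and settings were not given in the sources used here. The list called replicate-compared is the one deposited as conservative. The list called pooled is the other one made from both replicates' alignments, and how its pairs were formed is not stated. The deposited signal values (column 7, and columns 15 and 19 for the paired signals) have no stated unit. The deposited −log10 q-values and −log10 IDR values were taken from their places in the columns, which have no header. Each thresholded list held exactly the ranked entries with an IDR of 0.01 or less. The paired columns name no replicate: 53.9% of the first paired intervals were intervals of replicate 1's list and 44.9% of the second were of replicate 2's, and replicate signals printed by number come from the replicates' own lists.

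Overlapping entries were merged, and the summit of the entry with the highest signal was kept. This left 214 merged peaks of 238 entries in the replicate-compared list, 156 of 162 in the pooled list, 18 of 18 in replicate 1 and 17 of 18 in replicate 2. Sequencing depth is unknown. Gene models were those of Ensembl release 115 (WBcel235, the same sequence as ce11). A percentile ranked a gene's strongest signal among all protein-coding genes, those without a summit last. Python 3.11.15, numpy 2.4.6 and pandas 2.3.3 were used, and the assignment of summits was checked on simulated positions. No statistical test was run, since there was 1 group and the genes are not replicates. The 40 genes and the further lists were chosen with earlier results of these data known. All genes with a thresholded summit were named, and of the others the strongest in each role, with the rest by value. The control experiment the labels name was not analysed here.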

Additional observations from a re-analysis of the deposited data

How the results depend on the processing

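The count of genes with a thresholded summit, 5 of 40, is given with the share of all protein-coding genes in brackets. It stayed at 5 with any overlap of the peak interval (1.38%), with the nearest protein-coding start (1.03%) and with entries not merged (1.20%), and was 4 with windows starting 500 bp upstream (0.871%). It was 6 at IDR 0.05, egl-21 being added (5.10%). It was 2 in the pooled list, mod-5 and cat-2 (0.851%), 2 within 500 bp of the start, egl-3 and unc-25 (0.380%), 0 at IDR 0.001 (0.230%), 0 when q-values over 0.05 were dropped (0.175%), 0 without replicate 1 (0.105%) and 0 without replicate 2 (0.120%). Leaving out a replicate leaves a list of 17 or 18 peaks. The median percentile of the strongest signal among all protein-coding genes, whatever their window length, was 71.7. The 40 genes had longer windows, and 21 of them were above the median of their own length class. The median percentile was 67.7 without replicate 1, 73.0 without replicate 2, and 27.9 within 500 bp of the start, where most genes have no summit and tie. The density of ranked summits relative to all protein-coding genes was 1.07. It was 0.953 without replicate 1 and 1.21 without replicate 2. The q-value limit and the unmerged entries (for the count and the percentile) were chosen after seeing the data. Depth is unknown, so no limit can be set on peaks missed.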
